A study of Mus musculus with 6 samples.

Results

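The genes described here are 10 members of the YAP/TAZ and CCN system in mouse chondrocytes, chosen by gene name. They are the transcriptional coactivators Yap1 and Wwtr1 (TAZ), their regulators Lats2 and Amotl2, the target gene Ankrd1, and 5 genes of secreted CCN proteins under their older symbols, Ctgf, Cyr61, Nov, Wisp1 and Wisp2. Each of the 10 symbols matched exactly 1 of the 27734 rows of the deposited table. The libraries came from rib chondrocytes, the cells that make cartilage, taken without culture from mouse embryos at stage E18.5. There were 3 libraries labelled wild type and 3 from mutants that carried floxed Jab1 alleles and Cre recombinase under the Col2a1 promoter (Jab1flox/flox; Col2a1-Cre), which is active in cartilage cells. The sources used here do not give the floxed or Cre status of the wild-type embryos, nor whether each library was 1 embryo, and the p-values below therefore reflect library-to-library spread that could be technical. The comparison addresses which genes differ in chondrocytes when Cops5, which encodes the COP9 signalosome subunit Jab1, is targeted. Sex and genotype cannot be told apart in it, as given below.

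YAP and TAZ are partners of the TEAD transcription factors. The Hippo kinases, LATS2 among them, phosphorylate both and keep them out of the nucleus, and angiomotin-like proteins such as AMOTL2 hold them at junctions and on actin. Ctgf, Cyr61, Ankrd1, Amotl2 and Lats2 are widely used as target genes of YAP and TAZ, so LATS2 and AMOTL2 also act as feedback inhibitors. The CCN proteins are matrix-associated signalling proteins that bind integrins and proteoglycans. In cartilage CTGF is known for its part in growth plate matrix and vascular invasion.

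Of the 10 genes, 9 reached a mean of 1 FPKM (fragments scaled for the length of the gene model and for library size) and were tested, and 1 of these 9 passed, meaning a limma p adjusted over all tested genes below 0.05. Nov rose in the mutant libraries, with a mean level 4.77 times that of wild type, and it reached the filter only through its mutant values. Ctgf lay higher in every mutant library without passing. Cyr61 and Amotl2 were far higher in a single mutant library than in the rest. Yap1, Wwtr1, Lats2 and Wisp1 did not pass, with overlapping groups and differences of -0.24 to 0.10 on the log2 scale.

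Promoter sequences are shown first because most of these genes are defined as TEAD targets or partners. RefSeq windows on GRCm38.p6, running from 250 bases before to 50 bases after a start site, were found for 6 of the 10 genes: Yap1, Wwtr1, Lats2, Amotl2, Ankrd1 and Cyr61. The TEAD core motif GGAATG was searched on both strands and was present in at least 1 window of each of the 6 genes. Of all 32851 windows of 300 bases, 14.7% held the motif, a share by window and not by gene. Lats2 had a further window without it, and the windows of Wwtr1 shared a single match. None of these windows held the AP-1 motif TGANTCA (7.81% of all windows) or a CArG box, the motif of serum response factor (1.63%), so no motif overlapped another. These matches describe the letters of the windows and are not shown to be bound. The sites are given below on the strand of each gene, with the motif, or its reverse complement CATTCC, in capitals.
Yap1: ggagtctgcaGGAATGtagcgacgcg
Wwtr1: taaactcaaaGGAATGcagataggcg
Amotl2: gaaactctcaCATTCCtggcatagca
Ankrd1, farther site: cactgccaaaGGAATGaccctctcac
Ankrd1, nearer site: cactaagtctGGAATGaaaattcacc
Cyr61: cgccaaccaaCATTCCtgagatgttt
Lats2: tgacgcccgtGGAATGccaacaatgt

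The motif began 141 bases before the start in Yap1, 136 in Wwtr1 (from the upstream start), 65 in Amotl2, 210 and 123 in Ankrd1 and 103 in Cyr61. The Lats2 motif began at -4 on the same count, which is after the start. These starts are RefSeq's, and in GENCODE the sites of Amotl2, Ankrd1 and Lats2 lie in or reach into a first exon of the gene. The 26 bases shown for each lie at chr9:8004722-8004747 (Yap1), chr3:57576031-57576056 (Wwtr1), chr9:102717729-102717754 (Amotl2), chr19:36120039-36120064 and chr19:36119952-36119977 (Ankrd1), chr3:145650073-145650098 (Cyr61) and chr14:57746104-57746129 (Lats2). Amotl2 is on the plus strand and the others on the minus strand. For Cyr61, whose level varied most between mutant libraries, the 250 bases before the start (chr3:145649986-145650235, GRCm38.p6, minus strand) are printed with the same motif in capitals.
Cyr61 promoter: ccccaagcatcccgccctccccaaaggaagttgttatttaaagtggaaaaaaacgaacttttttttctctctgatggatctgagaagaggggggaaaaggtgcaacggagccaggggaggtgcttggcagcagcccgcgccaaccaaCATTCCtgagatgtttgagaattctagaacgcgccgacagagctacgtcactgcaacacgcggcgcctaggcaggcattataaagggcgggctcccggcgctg

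Libraries are named by genotype and column number. Cops5 measured 42.3, 39.8 and 40.1 FPKM in wild-type columns 0, 1 and 2 and 17.0, 18.0 and 17.2 in mutant columns 0, 1 and 2, so every mutant library carried less of the targeted gene. The 11 cartilage markers found in the table summed to 12381 to 14394 FPKM for wild type, against 13417, 9111 and 8585 FPKM in mutant columns 0, 1 and 2. Their median log2 difference was -0.47, and 2 of them fell, Comp (-0.66, limma adjusted p = 0.024) and Matn3 (-0.58, limma adjusted p = 0.045), which encode cartilage matrix proteins. Among all genes tested, 2.59% fell. The part of the cartilage markers in the results below was not tested. Column totals were 571180 to 631534 FPKM. Mutant column 0 stood apart. The 15 immediate-early genes of a list by function, which respond within minutes to growth factors, stretch or handling, summed to 1964 FPKM there, against 117 to 139 for wild type, and to 195 and 204 in mutant columns 1 and 2. Y-linked genes also differed, with 4 of them summing to 0.0281 to 0.639 FPKM for wild type, compared with 14.6, 82.8 and 71.7 in mutant columns 0, 1 and 2, so genotype and this difference cannot be told apart. Summed erythroid markers were 196 to 221 FPKM for wild type, compared with 14.9 to 49.4 in mutant libraries. The title of wild-type column 0 carries day 30 and the other titles day 24. Xist was at 63.1 to 65.9 FPKM for wild type, against 37.3, 0.0176 and 0.0244 in mutant columns 0, 1 and 2. Y-linked genes and Xist differ by sex, so sex and genotype cannot be told apart in these libraries. Mutant column 0 held both Xist (37.3 FPKM) and Y-linked transcripts (14.6 FPKM), and whether it mixed embryos of both sexes was not tested. The mean log2 Y-linked level was 1.97 in mutant column 0 and 4.08 and 3.89 in columns 1 and 2, so values from a fit with that level as covariate rest within the mutants on column 0. Member results are given with and without mutant column 0. In these bulk samples, fewer cells of a type and less RNA per cell cannot be told apart.

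**Figure D1:**
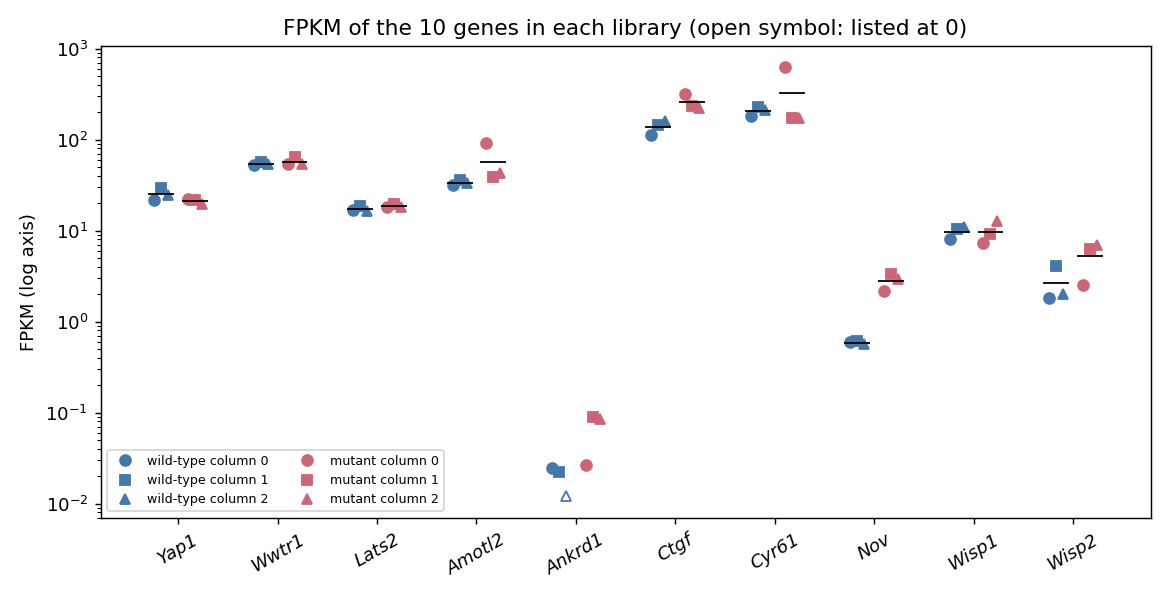
FPKM (log axis) of each of the 10 genes in the 3 wild-type (blue) and 3 mutant (red) libraries, with symbol shape for the column number, horizontal lines for group means (omitted for Ankrd1) and an open symbol for a value listed at 0. Nov lies between 0.568 and 0.608 FPKM in wild type and between 2.17 and 3.33 in mutant libraries, while Cyr61 and Amotl2 each have 1 high mutant library.

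In wild-type libraries the order of mean levels, per length, was Cyr61, Ctgf, Wwtr1, Amotl2, Yap1, Lats2, Wisp1, Wisp2, Nov and Ankrd1, and no neighbouring pair overlapped between libraries. Cyr61 and Ctgf together made up 96.1 to 96.6% of the summed FPKM of the 5 CCN members for wild type, compared with 94.5 to 98.7% in mutant libraries. In mutant libraries several neighbours could no longer be ordered. Cyr61 (171 to 622 FPKM) overlapped Ctgf (220.0 to 316 FPKM), Amotl2 (38.4 to 91.2 FPKM) overlapped Wwtr1 (53.4 to 63.8 FPKM), and Nov (2.17 to 3.33 FPKM) overlapped Wisp2 (2.52 to 7.02 FPKM). The plot of levels by library shows these spreads.

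The coactivators came first. Yap1 (chromosome 9, 7931999 to 8004596, mm10) measured 21.7, 29.7 and 24.7 FPKM in wild-type columns 0, 1 and 2 and 22.2, 21.9 and 19.6 FPKM in mutant columns 0, 1 and 2. The groups overlapped, since wild-type column 0 lay within the mutant range. The difference of log2(FPKM + 1), mutant minus wild type, was -0.24 (SE 0.125, 95% interval -0.55 to 0.07, limma adjusted p = 0.30), and -0.27 without mutant column 0. Wwtr1 (chromosome 3, 57455649 to 57575910) encodes TAZ and was the more abundant of the pair, at 53.0, 57.0 and 53.4 FPKM for wild type, compared with 53.4, 63.8 and 54.4 in mutant columns. Its groups overlapped as well, and the difference of 0.07 (SE 0.0894, 95% interval -0.15 to 0.29, limma adjusted p = 0.69) did not pass, nor did that of 0.11 without mutant column 0. The ratio of Yap1 to Wwtr1 FPKM was 0.410, 0.522 and 0.462 in wild-type columns against 0.416, 0.343 and 0.361 in mutant columns, overlapping through mutant column 0. The antisense transcript Gm20416 shares exons with Yap1, and it was listed at 0 to 0.170 FPKM, small beside Yap1.

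Among the feedback inhibitors, the kinase gene Lats2 (chromosome 14, 57689662 to 57758388) measured 16.8, 18.6 and 16.5 FPKM in wild-type columns against 18.2, 19.6 and 18.0 FPKM in mutant columns. These groups overlapped, with a log2 difference of 0.10 (SE 0.0725, 95% interval -0.08 to 0.28, limma adjusted p = 0.45), and 0.12 without mutant column 0. Another annotated gene on the same strand, Gm49361, shares exons with Lats2, so its level could include reads of that model. Amotl2 (chromosome 9, 102716672 to 102733418) measured 31.4, 35.6 and 33.4 FPKM in wild-type columns against 91.2, 38.4 and 42.5 FPKM in mutant columns. Every mutant library lay above every wild-type library, but mutant column 0 was 2.26 times the mean of the other mutant columns. The log2 difference was 0.65 (SE 0.328, 95% interval -0.16 to 1.46, limma adjusted p = 0.29), and without mutant column 0 it was 0.26 (limma adjusted p = 0.15). With a covariate for Y-linked expression Amotl2 passed, at 2.49 (limma adjusted p = 0.0085), a value that rests on mutant column 0. The immediate-early genes were highest in the same library, as given above, and their part in the Amotl2 level was not tested.

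Ankrd1 (chromosome 19, 36111961 to 36120099) encodes a nuclear ankyrin-repeat protein of heart and skeletal muscle that many cultured cells induce with YAP. It was listed at 0.0246, 0.0222 and 0 FPKM in wild-type columns against 0.0267, 0.0897 and 0.0857 FPKM in mutant columns. Values this close to 0 were not tested, and no fold is given. Ankrd1 was thus near 0 in all 6 libraries, although its promoter window held 2 TEAD motifs. Markers of skeletal muscle summed to 161 to 185 FPKM for wild type, compared with 59.3 to 89.5 in mutant libraries, mostly from Tnnt3. Of 8 tested, 1 fell (Tnnt3) and 7 did not pass, with a median log2 difference of -0.58. Among all genes tested, 2.59% fell.

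Among the CCN genes, Nov (Ccn3; chromosome 15, 54745702 to 54754039) encodes a CCN protein known to restrain proliferation and to oppose actions of CTGF in cartilage. It measured 0.589, 0.608 and 0.568 FPKM in wild-type columns against 2.17, 3.33 and 2.91 FPKM in mutant columns 0, 1 and 2. All mutant libraries lay above all wild-type libraries, whose values were close together. Means were 0.588 ± 0.0200 FPKM in the wild-type group against 2.80 ± 0.589 in the mutant group (SD, n = 3), and Nov rose by 1.25 on the log2(FPKM + 1) scale (SE 0.161, 95% interval 0.85 to 1.64, limma adjusted p = 0.018). Among all 14012 genes tested, 6.07% passed in either direction, 3.48% as higher and 2.59% as lower, against 1 of the 9 members. Since the wild-type mean of Nov lay under 1 FPKM, it entered the test through the group where it was high, and its call adds no support as a count over the members. With no filter on low values its adjusted p was 0.031 by limma. Without mutant column 0, Nov was again the 1 member of 9 that passed (log2 difference 1.37, limma adjusted p = 0.020). Without wild-type column 0, 1 or 2 its adjusted p was 0.072, 0.070 and 0.071, and without mutant column 1 or 2 it was 0.059 and 0.080, with log2 differences of 1.15 to 1.26. With a covariate for Y-linked expression, its log2 difference was 0.64 (limma adjusted p = 0.31).

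Ctgf (Ccn2; chromosome 10, 24595442 to 24598683) measured 111, 145 and 159 FPKM in wild-type columns against 316, 236 and 220.0 FPKM in mutant columns. The groups did not overlap, and all mutant libraries lay above the wild-type range. Means of 139 ± 24.5 and 257 ± 51.2 FPKM (SD, n = 3) gave a log2 difference of 0.88 (SE 0.192, 95% interval 0.41 to 1.36), and the limma adjusted p of 0.057 missed the threshold. Of all genes tested, 24.7% had an unadjusted p under 0.05, and of the members Ctgf and Nov did. Ctgf passed when genes under a mean of 5 FPKM were left out (adjusted p = 0.049), with a robust variance prior (0.049) and with library weights (0.045), and in no other alternative. Without mutant column 0 the log2 difference was 0.73 (limma adjusted p = 0.082), and without wild-type column 0 it was 0.74 (limma adjusted p = 0.14). The antisense transcript Gm15270, which shares exons with Ctgf, was at 0.677 to 3.09 FPKM.

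Cyr61 (Ccn1; chromosome 3, 145646976 to 145649981), an early response gene as well as a YAP target, had no common direction. It measured 181, 227 and 212 FPKM in wild-type columns and 622, 171 and 173 FPKM in mutant columns 0, 1 and 2. Mutant column 0 was 3.62 times the mean of mutant columns 1 and 2, which both lay below every wild-type library. The log2 difference was 0.36 with a wide interval (SE 0.521, 95% interval -0.92 to 1.65, limma adjusted p = 0.71), and without mutant column 0 it was -0.25 (limma adjusted p = 0.25). With the Y-linked covariate Cyr61 passed, at 3.28 (limma adjusted p = 0.018), which goes beyond the measured difference of any library and rests on mutant column 0. The ratio of Ctgf to Cyr61 FPKM was 0.617, 0.640 and 0.752 in wild-type columns against 0.507, 1.38 and 1.27 in mutant columns. Ctgf thus exceeded Cyr61 in mutant columns 1 and 2 and in no other library. The summed FPKM of immediate-early genes was highest in mutant column 0, and its part in the Cyr61 level was not tested.

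**Figure D2:**
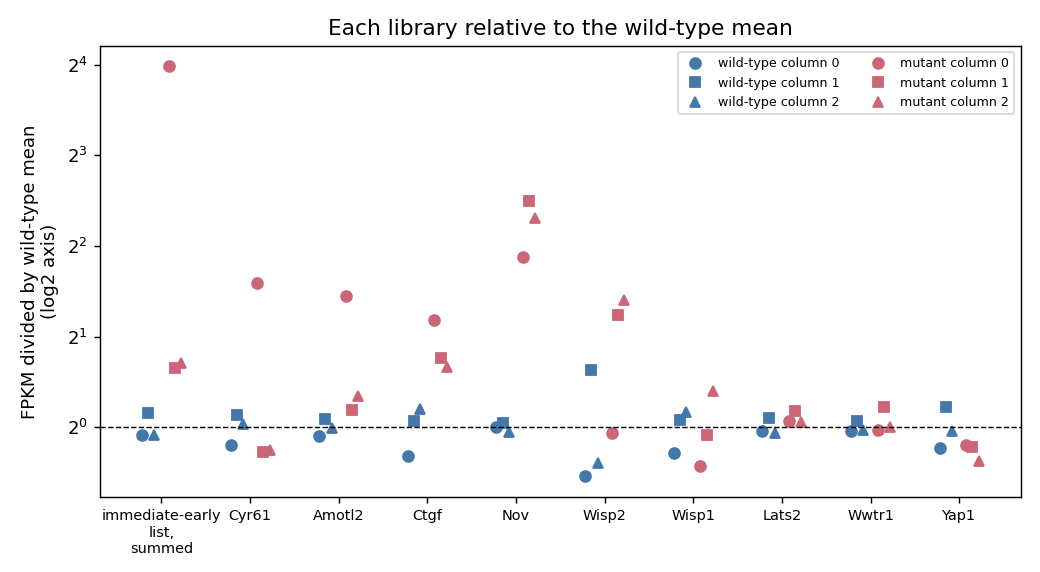
FPKM of each library divided by the wild-type mean (log2 axis) for the summed immediate-early list and for the 9 tested genes, wild type in blue and mutant in red, symbol shape for column number. Mutant column 0 is the highest library for the immediate-early list, Cyr61, Amotl2 and Ctgf, and the lowest mutant library for Nov, Wisp2, Wisp1 and Wwtr1.

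Wisp1 (Ccn4; chromosome 15, 66891320 to 66923201), a Wnt-responsive CCN gene of bone and cartilage precursors, measured 7.99, 10.3 and 10.9 FPKM in wild-type columns against 7.25, 9.18 and 12.9 FPKM in mutant columns. The groups overlapped fully, and the log2 difference was -0.02 (SE 0.215, 95% interval -0.55 to 0.51, limma adjusted p = 0.97). It was 0.16 without mutant column 0 and did not pass, and with the Y-linked covariate it was -0.82. Summed osteoblast markers had the same order of libraries as Wisp1. The sums were 62.0, 99.0 and 178 FPKM in wild-type columns against 47.2, 86.0 and 222 FPKM in mutant columns. Ibsp was the most abundant of these markers in every library, at 36.7, 61.9 and 130 against 16.9, 52.1 and 171 FPKM. It alone of the osteoblast markers had that order, and Sp7, Bglap, Dmp1 and Alpl did not. Their part in the Wisp1 level was not tested. Wisp2 (Ccn5; chromosome 2, 163820861 to 163833146), whose protein lacks the C-terminal domain of the other CCN proteins, measured 1.82, 4.10 and 2.00 FPKM in wild-type columns against 2.52, 6.25 and 7.02 FPKM in mutant columns. Wild-type column 1 lay above mutant column 0, so the groups overlapped, with a log2 difference of 0.75 (SE 0.389, 95% interval -0.21 to 1.71, limma adjusted p = 0.30). Without mutant column 0 the Wisp2 difference was 1.12 (limma adjusted p = 0.10), and with the Y-linked covariate it was -0.92. Summed endothelial markers were also highest in mutant columns 1 and 2, at 2.49, 4.34 and 4.11 FPKM in wild-type columns against 1.37, 8.60 and 9.97 FPKM in mutant columns, and their part in the Wisp2 level was not tested. Of 9 tested fibroblast and perichondrium markers 1 rose (Twist1) and 2 fell (Lum and Dcn). Among all genes tested, 3.48% rose and 2.59% fell. The fibroblast and perichondrium list summed to 1493 to 1768 FPKM for wild type, compared with 1021 to 1573 in mutant libraries. Tendon markers summed to 5.43 to 10.2 FPKM for wild type and 8.38 to 37.2 FPKM in mutant libraries.

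The remaining family member, Wisp3 (Ccn6), was not among the 10 genes and lay lower in every mutant library. It measured 8.57, 7.28 and 7.89 FPKM in wild-type columns against 6.0, 5.06 and 3.58 FPKM in mutant columns, a log2 difference of -0.62 (SE 0.167) that did not pass (limma adjusted p = 0.093).

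**Figure D3:**
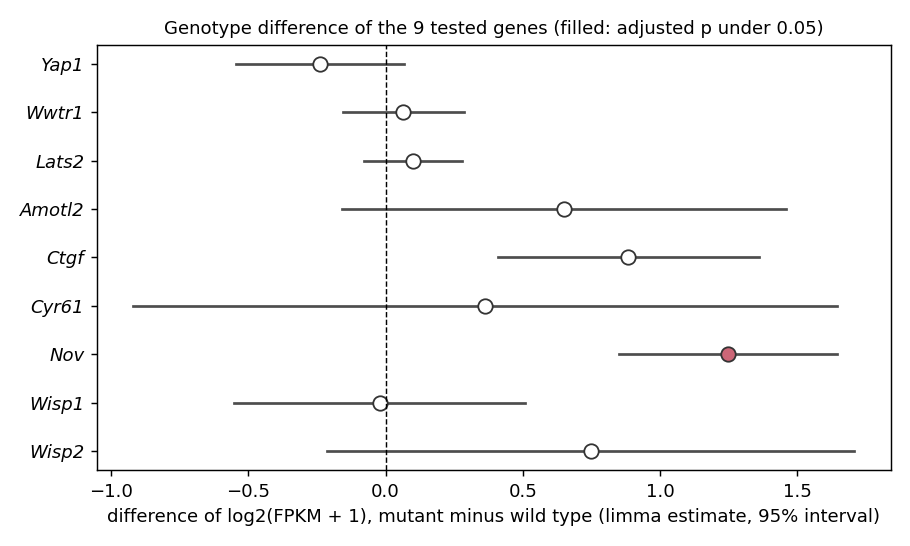
Difference of log2(FPKM + 1), mutant minus wild type, for the 9 tested genes, as the limma estimate with its 95% interval, filled where the adjusted p was under 0.05. Nov alone is filled, the interval of Ctgf (0.41 to 1.36) also lies above 0, and the interval of Cyr61 is the widest.

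Over the 9 tested members the median log2 difference was 0.36, against 0.00 over all genes tested. It was the value of Cyr61, and without mutant column 0 the median was 0.16, that of Wisp1. Of the 9, 3 had all mutant libraries above all wild-type libraries (Amotl2, Ctgf and Nov) and none had the reverse, where 32.2% of all genes did not overlap, 16.3% in the higher and 15.9% in the lower direction. The median and the 3 include Nov, which reached the filter only through its mutant values, so its place there adds no support. Cyr61 overlapped through mutant column 0, since mutant columns 1 and 2 lay below every wild-type library. These counts describe genes selected by name and were not tested as a set.

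Genes around the members were read from lists drawn up by function. Beside each list count stands the share of all genes tested that passed, 6.07%, with 3.48% as higher and 2.59% as lower. The lists were not tested as sets. Of 17 further genes known as YAP/TAZ targets in other cells, 14 were tested, 2 rose, none fell and 12 did not pass, with a median log2 difference of 0.48 (0.63 without mutant column 0). Ccdc80, a secreted matrix protein and the most abundant of the list, measured 61.3, 71.2 and 69.4 FPKM in wild-type columns against 189, 143 and 127 FPKM in mutant columns. It rose by 1.16 on the log2 scale (SE 0.161, limma adjusted p = 0.021). Fjx1, a homologue of the fly Hippo regulator four-jointed, measured 3.06, 2.85 and 3.17 FPKM in wild-type columns against 9.59, 7.43 and 11.3 FPKM in mutant columns and rose by 1.36 (SE 0.147, limma adjusted p = 0.011). Both passed without mutant column 0, where again 2 of 14 rose and 4.77% of all genes were called. Ccdc80 did not pass when a wild-type column (0, 1 or 2) or mutant column 1 was dropped (adjusted p = 0.083, 0.079, 0.085 and 0.063), nor did Fjx1 without wild-type column 0, 1 or 2 (0.057, 0.053 and 0.051). The ectonucleotidase gene Nt5e, next in abundance, measured 54.3 ± 8.16 FPKM in the wild-type group against 81.6 ± 9.20 in the mutant group (SD, n = 3; limma adjusted p = 0.069). The growth factor gene Tgfb2 measured 48.4 ± 4.78 FPKM in the wild-type group against 39.2 ± 8.13 in the mutant group (SD, n = 3; limma adjusted p = 0.29). Gadd45a, also a p53 target, measured 11.3 ± 6.02 against 28.7 ± 2.39 FPKM (limma adjusted p = 0.068).

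Of 20 tested Hippo kinases and upstream regulators, none rose, 1 fell and 19 did not pass, with a median of 0.01 (-0.0049 without mutant column 0). The gene that fell was Amotl1, a paralogue of Amotl2, at 22.4, 25.1 and 23.0 FPKM in wild-type columns against 18.6, 18.0 and 17.7 FPKM in mutant columns (log2 difference -0.35, SE 0.0671, limma adjusted p = 0.042). Amotl1 did not pass when any single library was left out (adjusted p 0.061 to 0.131). The kinase gene Map4k4 and the kinase adaptor gene Mob1a were the most abundant of the list, at 44.4 ± 6.22 against 56.2 ± 5.37 FPKM (adjusted p = 0.17) and 39.6 ± 1.26 against 41.0 ± 1.40 FPKM (adjusted p = 0.66), both by limma. Fat4, a giant cadherin, measured 15.4, 12.9 and 14.4 FPKM in wild-type columns against 11.7, 7.69 and 5.38 FPKM in mutant columns. Over all 6 libraries its log2 difference of -0.77 did not pass (limma adjusted p = 0.13). Fat4 passed without mutant column 0, with a log2 difference of -1.03 (limma adjusted p = 0.041).

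The 5 tested TEAD and VGLL genes gave 0 calls with limma. An unadjusted p below 0.05 was seen for 3, each of them higher, where 12.7% of all genes tested had such a p as higher. The median was 0.40 (0.30 without mutant column 0). The repressive cofactor gene Vgll4 measured 30.7, 33.2 and 32.9 FPKM in wild-type columns against 49.7, 36.9 and 43.5 FPKM in mutant columns (adjusted p = 0.11). Tead1, the most abundant of the 4 TEAD genes in wild type, measured 8.09 ± 1.03 against 6.84 ± 1.45 FPKM (adjusted p = 0.45), both by limma. Tead2 measured 4.48, 4.76 and 4.87 FPKM in wild-type columns against 5.01, 7.32 and 8.73 FPKM in mutant columns (limma adjusted p = 0.19). Tead2 passed without mutant column 0, with a log2 difference of 0.66 (limma adjusted p = 0.039).

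The 9 tested CCN receptors also gave 0 calls with limma. An unadjusted p below 0.05 was seen for 1 higher and 1 lower gene, where 24.7% of all genes tested had such a p in either direction. The median was 0.06 (0.04 without mutant column 0). The proteoglycan gene Sdc4 and the integrin gene Itgb1 were the most abundant, at 297 ± 27.9 against 339 ± 19.6 FPKM (adjusted p = 0.29) and 149 ± 12.3 against 171 ± 12.4 FPKM (adjusted p = 0.26), both by limma. Itgb5, which pairs with integrin alpha v, measured 47.7, 46.7 and 40.8 FPKM in wild-type columns against 65.0, 55.1 and 58.0 FPKM in mutant columns (limma adjusted p = 0.077). The endocytic receptor gene Lrp1 measured 43.4, 37.9 and 46.1 FPKM in wild-type columns against 35.3, 23.9 and 15.2 FPKM in mutant columns (limma adjusted p = 0.16).

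**Figure D4:**
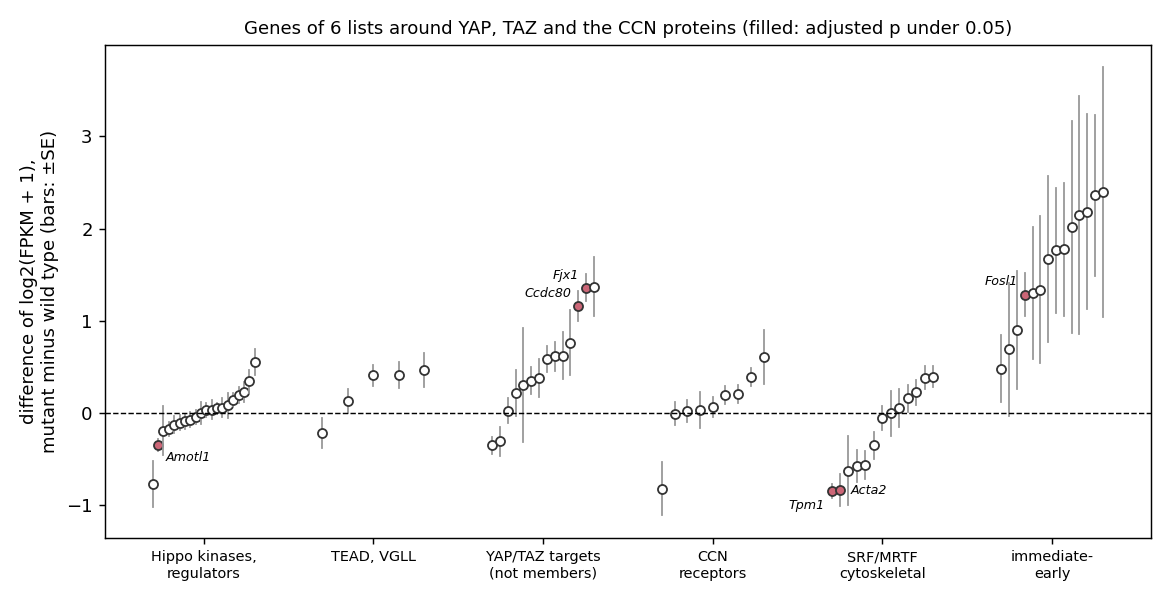
Difference of log2(FPKM + 1), mutant minus wild type, for the tested genes of 6 lists, each point 1 gene with ±SE from limma, filled and named where the adjusted p was under 0.05. Ccdc80 and Fjx1 are filled above 0 among the YAP/TAZ targets, Amotl1, Tpm1 and Acta2 below 0 in their lists, and the immediate-early genes lie high with wide bars.

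Serum response factor (SRF) and its MRTF cofactors control actin cytoskeleton genes and are also known regulators of Ctgf and Cyr61. Of 13 tested genes on this list, none rose, 2 fell and 11 did not pass, with a median of -0.06 that turned to 0.08 without mutant column 0. Tpm1, a tropomyosin, measured 289, 295 and 294 FPKM in wild-type columns against 149.7, 166 and 171 FPKM in mutant columns and fell by 0.85 on the log2 scale (SE 0.0779, limma adjusted p = 0.0071). Smooth muscle actin Acta2 measured 123, 168 and 144 FPKM in wild-type columns against 96.2, 77.6 and 68.4 FPKM in mutant columns and fell by 0.84 (SE 0.169, limma adjusted p = 0.047). Without mutant column 0, 3 of the list fell, Tpm1, Acta2 and the MRTF gene Mkl2 (log2 difference -0.74, limma adjusted p = 0.023). Over all 6 libraries the Mkl2 difference of -0.57 did not pass (limma adjusted p = 0.095). Acta2 did not pass when any single library other than mutant column 0 was left out (adjusted p 0.092 to 0.143). Actb, the most abundant, measured 1196 ± 57.4 against 1571 ± 129 FPKM (limma adjusted p = 0.10).

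Of 14 tested immediate-early genes 1 rose and 13 did not pass, with a median of 1.72, against 0.64 over 13 genes without mutant column 0. The gene lost was Egr2, at 0.185, 0.154 and 0.280 FPKM in wild-type columns against 10.2, 0.734 and 0.443 FPKM in mutant columns. Egr2 reached the filter of 1 FPKM only through mutant column 0, and it counts in the median of 1.72. Fosl1, an AP-1 subunit, measured 0.452, 1.21 and 0.288 FPKM in wild-type columns against 3.18, 2.81 and 2.73 FPKM in mutant columns (log2 difference 1.28, SE 0.230, limma adjusted p = 0.038). Fosl1 too reached the filter of 1 FPKM only through its mutant values, and with no filter it did not pass (limma adjusted p = 0.063). Fosl1 did not pass without wild-type column 0 or 2 or any single mutant column (adjusted p 0.077 to 0.120). Fos and Egr1 were highest in mutant column 0. They measured 9.73, 8.60 and 14.9 against 587, 18.3 and 20.0 FPKM and 3.16, 5.11 and 6.01 against 145, 10.1 and 9.29 FPKM in the same order of columns. Without mutant column 0, 3 of the list passed as higher, Junb, Dusp1 and Btg2, with log2 differences of 0.92, 0.96 and 1.32 (limma adjusted p = 0.044, 0.041 and 0.032). Over all 6 libraries these 3 did not pass (limma adjusted p = 0.20, 0.18 and 0.17).

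For 3 members the genes of most similar profile were sought among 7474 candidates, by Pearson's r of log2(FPKM + 1) over the 6 libraries, as a description. Nearest to Ctgf were Fzd8, Wdr82 and Zfp787 (r = 0.999, 0.998 and 0.995). Fzd8, a Wnt receptor, measured 7.64, 9.35 and 10.04 FPKM in wild-type columns against 17.3, 13.8 and 12.6 FPKM in mutant columns, the same order of libraries as Ctgf. Nearest to Cyr61 were Slc6a9, Zfp36 and Itpr3 (r = 0.996, 0.996 and 0.993), and Zfp36, an immediate-early gene, measured 5.82, 8.06 and 7.41 FPKM in wild-type columns against 41.6, 6.10 and 6.17 in mutant columns. Nearest to Yap1 were Ube3c, Naa50 and Rbm12b2 (r = 0.991, 0.990 and 0.990). The points of each correlation share the genotype contrast and, for Cyr61, the single high library.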

How the data were processed

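RNA sequencing libraries of 6 samples (3 wild type, 3 mutant) were analysed. Total RNA depleted of ribosomal RNA went into a strand-specific kit and was read single-end for 50 bases, per the labels' protocols, which also name CLC Genomics Workbench. STAR, Cufflinks, Cuffdiff and mm10 are listed in the submitters' processing notes. The sources used here do not give tool versions or any use of strand in counting. FPKM values were deposited by the authors in 1 table, and any further scaling between libraries is not stated. Depth per library is unknown from FPKM, and counting intervals are therefore left out. Columns were assigned by their names: 4 matched 1 sample and 2 (column 2 of each group) only a group.

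Values were transformed as log2(FPKM + 1), which understates changes of low genes. A mean of 1 FPKM or more was required (14012 of 27734 genes). The model was limma 3.58.1 under R 4.3.3 (lmFit, eBayes with trend=TRUE), two-sided, with Benjamini-Hochberg adjustment over all genes tested. The words rose and fell are kept for an adjusted p under 0.05. With 3 against 3 libraries an exact permutation p cannot go below 0.1, so none is given. Coordinates came from GENCODE M21 by gene identifier (27578 matched), and promoters from RefSeq (GRCm38.p6).

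The members and lists were chosen with earlier results of these data known. Named genes were the members, Cops5, Wisp3, genes of the 6 pathway lists that passed, the 2 most abundant of each such list (Vgll4 and Tead1, Actb and Tpm1, Fos and Dusp1 among them) and the 3 nearest profiles of Ctgf, Cyr61 and Yap1. Tgfb2, Gadd45a, Fat4, Mkl2, Tead2, Itgb5, Lrp1, Egr1, Egr2, Junb, Btg2 and the cell type markers given by name were named after their values were seen. Alternatives were other pseudocounts (0.1, 0.5), filters, scalings, variance prior, library weights, a Y-linked covariate, a replicate block and leaving out each library.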

Additional observations from a re-analysis of the deposited data

How the results depend on the processing

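All 16 alternatives kept Cops5 lower in mutant libraries. Over all genes 850 passed, against 461 with no filter, 1488 with library weights, 236 with a Y-linked covariate (189 higher, 47 lower) and 174 to 666 when 1 library was left out. With the column number as a replicate block 60 genes passed (44 higher, 16 lower), among them 0 members and 0 genes of the 6 pathway lists. Same-numbered columns had correlations of deviations of -0.033, -0.042 and -0.023, and other pairs had -0.0062 to 0.042. These values show no pairing by number. Deviations were taken within groups of 3 libraries, so they cannot exclude a pairing. Among members 1 passed, against 2 (Ctgf and Nov) with a robust variance prior or library weights, 2 (Cyr61 at 3.28 and Amotl2 at 2.49 on the log2 scale) with the Y-linked covariate, and 0 to 1 in the leave-one-out fits. With a mean of at least 5 FPKM the 1 member was Ctgf, since Nov was below the filter.

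Listed genes that passed were, for Hippo regulators, 1, against 0 with no filter, 2 with library weights, 0 with the Y-linked covariate or replicate block, and 0 to 1 with 1 library left out. For TEAD and VGLL genes 0 became 0 to 1 with 1 library left out. For YAP/TAZ targets 2 became 5 with library weights, 1 with the Y-linked covariate, 0 with the replicate block and 0 to 2 with 1 library left out. For CCN receptors 0 became 1 with library weights. For SRF and MRTF genes 2 became 1 with no filter, 0 with the Y-linked covariate or replicate block and 1 to 3 with 1 library left out. For immediate-early genes 1 became 0 with no filter, a mean of at least 5 FPKM or the replicate block, 12 with the Y-linked covariate and 0 to 3 with 1 library left out.

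Directions turned for 4 members. Wwtr1 was -0.17 with the Y-linked covariate and -0.015 to 0.11 with 1 library left out (lowest without mutant column 1). Cyr61 was -0.058 with library weights and -0.25 (without mutant column 0) to 0.67 with 1 library left out. Wisp2 was -0.92 with the Y-linked covariate. Wisp1 was -0.22 to 0.16 with 1 library left out, at 0.022 and 0.062 when wild-type column 1 or 2 was dropped and 0.16 and 0.0038 when mutant column 0 or 1 was, and it was -0.82 with the Y-linked covariate. The causes were not tested. Depth is unknown, which limits what can be said of low genes such as Ankrd1 and Nov.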
